A study of Mus musculus with 24 samples.

Results

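Extraocular muscle of mdx mice, the muscles that move the eye, was compared between 112 and 14 days of age. The comparison rests on the 6 arrays whose titles give the mdx genotype and these ages, 3 per age, of 24 arrays in the series. The mdx mouse lacks dystrophin because of a stop codon in Dmd and serves as a mouse model for Duchenne dystrophy. The remaining arrays hold mdx muscle at 28 and 56 days and wild type muscle, called control in the labels, at 14, 28, 56 and 112 days, with 3 arrays in each group. The titles name no strain, sex or number of animals, so a strain difference between mdx and control could not be told apart from the mutation. Whether the 3 arrays of a group come from separate animals is not stated in the labels, so p-values cover only the variation among these arrays, which could be technical in origin.

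Dystrophin links the actin cytoskeleton of a muscle fibre, through a complex in the cell membrane, to laminin in the basement membrane around the fibre. Without it, limb and diaphragm fibres of mdx mice go through cycles of death and regeneration, while the eye muscles are largely spared. Mouse pups open their eyes at about the younger of these ages, and skeletal muscle then leaves its fast postnatal growth: the making of collagen slows, imprinted growth genes are shut down and adult metabolic enzymes come up. The comparison addresses how dystrophin-deficient eye muscle changes over this whole postnatal span. In bulk tissue such as this, fewer cells of a type and less RNA per cell cannot be told apart.

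The mdx 14-day replicate 3 stood apart from its group. Its log2 levels correlated with those of the other arrays of its group with a mean r of 0.867 across probe sets, against 0.901 and 0.908 for replicates 1 and 2, while the mdx 112-day arrays correlated with each other at 0.962 to 0.963. A pair of control arrays also stood apart, the 56-day replicate 2 and the 112-day replicate 1. The first affects the mdx comparison only through the choice of probe sets to test and the shared estimate of the spread. The second also enters every control value at 112 days given here. In the 112-day control replicate 1, Myh3 read 41.1 against 4959 and 4927 in replicates 2 and 3. Muscle RNA was plain in all 6 mdx arrays: Ckm, the muscle creatine kinase, read 6442, 7930 and 6779 at 14 days and 6967, 7429 and 6291 at 112 days on its brighter probe set. Myh13, the myosin heavy chain typical of eye muscle, is not on the array under that symbol and was not analysed here. The log2 ratio of the 3' to the 5' Gapdh control probe sets was -1.41, -0.75 and -3.68 in the 14-day mdx replicates 1, 2 and 3. It was -2.36, -3.37 and -3.47 in the 112-day replicates, so the 14-day replicates 1 and 2 lay above all of these. For actin the ratio was -1.98, 0.31 and -0.83 at 14 days and 0.78, -0.50 and -0.27 at 112 days. What these ratios mean for the comparison was not tested.

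Of 7453 probe sets tested, 129 were called higher and 166 lower at 112 than at 14 days, 295 in all. A probe set was called at a limma adjusted p under 0.05. The share of all tested probe sets called was 3.96%, with 1.73% called higher and 2.23% called lower, and these shares are the background for every list of genes. The called probe sets named 111 genes that rose and 150 genes that fell, counting only those with 1 gene symbol. The arrays of the ages did not overlap at any of the 295, against 24.9% of all tested probe sets. The median size of the called changes was 2.15-fold, with 71 rises and 111 falls past 2-fold. The count depended on single arrays. It was 177, 174 and 307 without the 14-day replicates 1, 2 and 3, and 125, 151 and 146 without the 112-day replicates 1, 2 and 3. It rose to 502 without the control arrays that stood apart, the 56-day replicate 2 and the 112-day replicate 1. Without the 14-day replicate 3, 168 were higher and 139 lower, so that 54.7% of the calls were rises, against 43.7% with it, and 209 of the 295 calls remained.

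**Figure D1:**
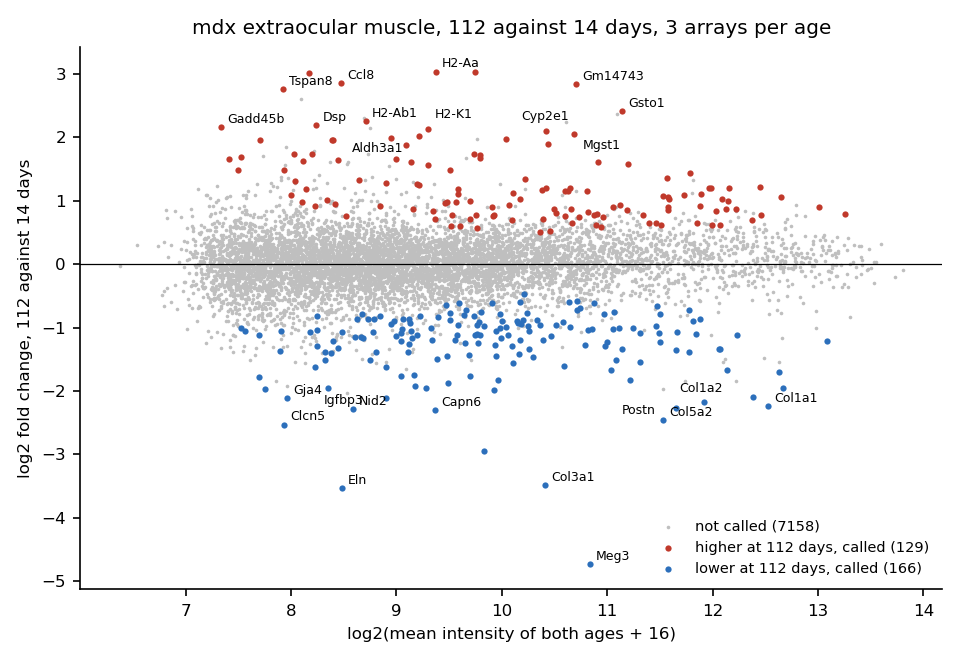
Log2 fold change between mdx muscle at 112 and 14 days against the log2 mean intensity of both ages, 1 point per tested probe set, with the 129 probe sets called higher in red and the 166 called lower in blue. The 12 largest rises and 12 largest falls with 1 gene symbol are named; the fall of Meg3, 4.74 log2 units, lies apart from the rest.

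The sequence in front of the transcription start is shown for 5 called genes from lists in which all called members moved one way. They are the class II antigen presentation genes H2-Aa and H2-Eb1 and the class I gene H2-D1, which rose, and the collagen gene Col1a2 and the imprinted non-coding RNA gene Meg3, which fell. Each line gives the 150 bases before the annotated start from RefSeq, build GRCm38.p6, 5′ to 3′ on the gene's strand. Capitals mark the letters CCAAT, the CCAAT box, and GACGTCA, the core of a cyclic AMP response element, searched on both strands; matches of a motif to both strands at the same place were joined.
H2-Aa, chr17:34287824-34287973, minus strand: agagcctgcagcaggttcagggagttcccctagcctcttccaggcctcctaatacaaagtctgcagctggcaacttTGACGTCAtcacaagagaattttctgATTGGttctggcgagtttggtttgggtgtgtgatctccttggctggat
H2-Eb1, chr17:34305717-34305866, plus strand: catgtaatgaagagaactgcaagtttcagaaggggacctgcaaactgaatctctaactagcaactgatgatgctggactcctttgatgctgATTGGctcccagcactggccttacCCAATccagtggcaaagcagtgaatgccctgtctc
H2-D1, chr17:35262944-35263093, plus strand: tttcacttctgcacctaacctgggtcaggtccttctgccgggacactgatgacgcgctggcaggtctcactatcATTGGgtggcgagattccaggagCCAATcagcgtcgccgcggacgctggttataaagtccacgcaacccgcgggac
Col1a2, chr6:4505468-4505617, plus strand: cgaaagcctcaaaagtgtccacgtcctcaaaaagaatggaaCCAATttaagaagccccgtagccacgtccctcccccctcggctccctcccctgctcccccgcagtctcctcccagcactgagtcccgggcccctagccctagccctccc
Meg3, chr12:109540846-109540995, plus strand, the first of 2 listed starts: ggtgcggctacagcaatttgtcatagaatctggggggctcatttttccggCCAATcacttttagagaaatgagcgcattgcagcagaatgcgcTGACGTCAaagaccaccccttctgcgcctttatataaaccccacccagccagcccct
The window of H2-Aa and that of Meg3 each held both motifs. Among 32851 promoter windows of this length in the table, 24.5% held CCAAT and 2.33% held GACGTCA. Of the 7 antigen presentation and interferon genes that rose, 4 were in the promoter table and 4 of these held CCAAT, while it was held by 1 of 11 interstitial matrix genes, 3 of 7 basement membrane genes and 1 of 5 imprinted genes that fell and were in the table. These matches describe letters only.

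The interstitial matrix, the collagens and elastic fibres between the muscle fibres, fell. Of 43 measured genes of the matrix and its processing, 15 fell and 0 rose, with a median log2 change of -0.92 against 0.01 over all tested probe sets. At 25 of the 43 genes every 112-day array lay below every 14-day array, against 12.6% of all tested probe sets. Col1a2, a chain of the fibre-forming collagen type I, read 6331, 6261 and 6419 at 14 days and 1329, 1500 and 1338 at 112 days. The groups were far apart and each was tight: the change was -2.18 ± 0.22 log2 units (SE, 3 arrays per age, limma adjusted p = 1.56e-06). A dimmer Col1a2 probe set changed by 0.19 ± 0.27 (adjusted p = 0.84). Col5a2, a chain of the collagen that starts fibrils, read 4909, 5893 and 4192 and then 744.4, 993.2 and 937.8, a change of -2.46 ± 0.23 (adjusted p = 6.03e-07). Its partner chain Col5a1 fell by 1.29 and the microfibril collagen gene Col6a3 by 1.36. Col3a1, the collagen of pliable tissue, fell on all 3 of its probe sets, with changes of -1.68, -1.95 and -3.49. Its brightest probe set read 9257, 14580 and 7435 at 14 days and 2177, 2776 and 2816 at 112 days. Col1a1, the partner of Col1a2, read 8620, 14342 and 6463 at 14 days and 1560, 2008 and 2394 at 112 days on the probe set that fell, by 2.24 ± 0.38 (adjusted p = 0.0011). Another Col1a1 probe set changed by -0.39 (adjusted p = 0.40), and the disagreement was not resolved here.

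Among the falling genes of the matrix list were 3 of elastic fibres. Eln, the elastin gene, read 8000, 12675 and 5544 at 14 days and 1753, 1946 and 2072 at 112 days, a change of -2.10 ± 0.31 (adjusted p = 0.000296), and on a dimmer probe set it fell by 3.53 ± 0.62. Mfap2, a microfibril protein, fell by 1.88 and Fbln2, a fibulin of elastic fibres, by 1.01. Other genes of microfibrils and fibulins in the list, Mfap4, Mfap5 and Fbln1, changed by -1.65, -1.04 and -0.09 and were not called (adjusted p = 0.13, 0.054 and 0.94). Postn, periostin, a matrix protein of growing connective tissue, read 6152, 6056 and 3795 and then 876.5, 1209 and 1141, a fall of 4.83-fold (adjusted p = 0.0041). Sparc, which binds collagen, fell by 1.34, and Serpinh1, the chaperone of procollagen in the endoplasmic reticulum, by 1.24. The call of Serpinh1 was lost without the 14-day replicate 1 or 2 or the 112-day replicate 1 or 2, and that of Col6a1, which fell by 1.10, without the 112-day replicate 2. With 1 mdx array left out the list had 13 to 16 falling members, and 1 rising member without the 14-day replicate 3.

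Not all of the matrix list moved. The small leucine-rich proteoglycan genes Dcn and Lum, which bind collagen fibrils, changed by -0.01 ± 0.33 and -0.26 ± 0.42 and were not called (adjusted p = 1.00 and 0.86). Dcn read 8475, 14305 and 6560 at 14 days and 10293, 9145 and 8298 at 112 days, so the ages overlapped. Fn1, fibronectin, changed by -0.34 and Timp1, an inhibitor of matrix proteases, by -0.25, neither of them called. Lox, the enzyme that crosslinks collagen and elastin, read 503.8, 424.4 and 385.4 and then 181.6, 232.6 and 180.4, a change of -1.08 ± 0.41 that was not called (adjusted p = 0.17) although the arrays did not overlap.

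The basement membrane, the sheet around fibres and vessels that dystrophin's complex is anchored to, fell as well. Of 15 measured genes 10 fell and 0 rose, with a median change of -0.98, and all 15 changes were negative. Col4a1 and Col4a2, the chains of the collagen network of this sheet, stood at 10109, 12308 and 6875 and at 5611, 5368 and 4215 at 14 days. At 112 days they read 2733, 3066 and 2893, and 1784, 2161 and 1806. The fall was 1.71 ± 0.25 log2 units for Col4a1 (adjusted p = 0.000256) and 1.39 ± 0.16 for Col4a2 (adjusted p = 1.1e-05). The laminin chains Lama2, Lama4, Lamb1 and Lamc1 fell by 0.92 to 1.29. Lama2, the chain of the muscle laminin that the dystrophin complex binds, read 1689, 1838 and 1643 and then 801.7, 881.5 and 957.6, a change of -0.96 ± 0.16 (adjusted p = 0.00081). Nid2 and Nid1, the nidogens that join laminin to collagen IV, fell by 2.29 and 1.29, and Hspg2, perlecan, by 0.98. Lamb2, the laminin chain concentrated at the nerve-muscle junction, changed by -0.31 and Agrn, agrin, by -0.53, and neither was called. The list had 7 to 11 falling members when 1 mdx array was left out, 7 of them without the 112-day replicate 1.

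**Figure D2:**
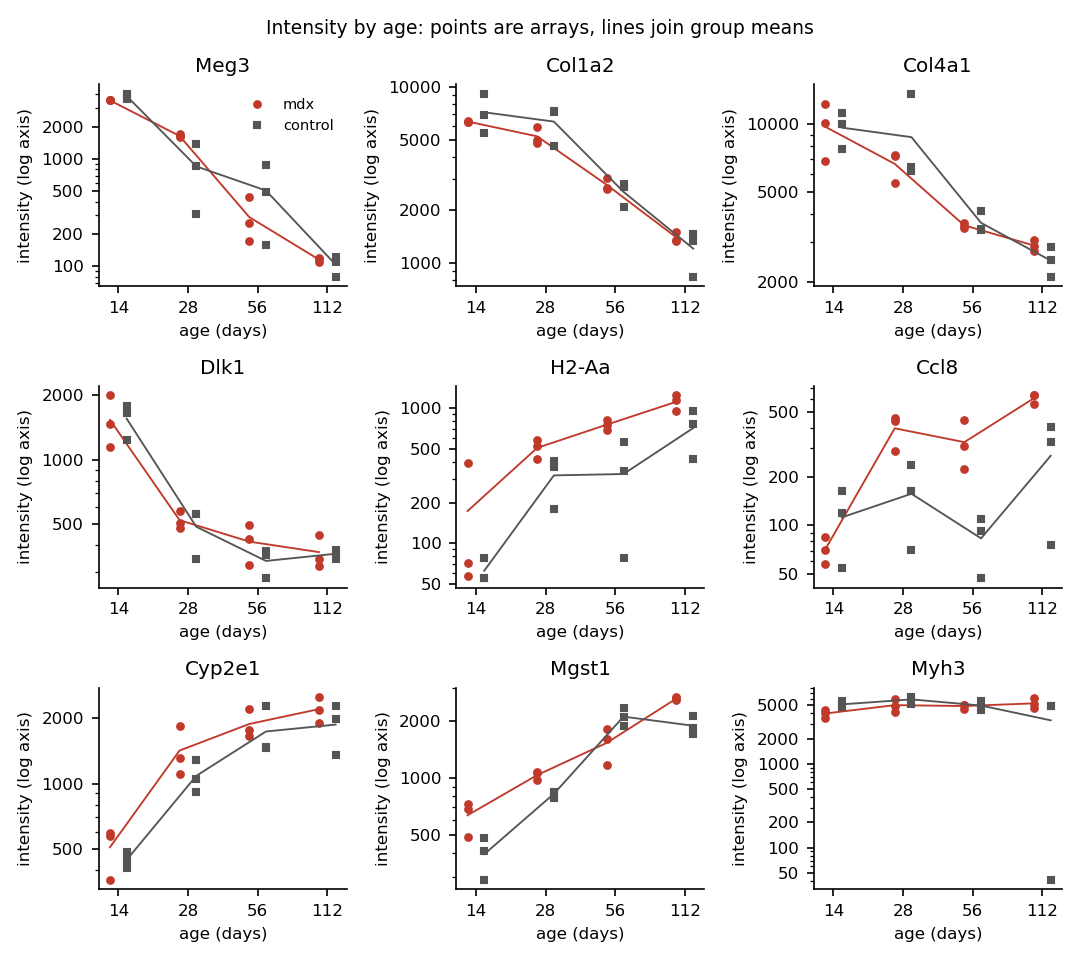
Intensity on a log axis at 14, 28, 56 and 112 days for 9 genes, with mdx arrays as red circles, control arrays as grey squares and lines through the group means, 3 arrays per group. Meg3, Col1a2, Col4a1 and Dlk1 fell and H2-Aa, Ccl8, Cyp2e1 and Mgst1 rose between 14 and 112 days in mdx muscle; mdx Myh3 read 3550 to 4398 at 14 days and 4597 to 6092 at 112 days.

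Imprinted genes of the growth network, which are read from only the maternal or only the paternal copy and are known for a shared decline after birth, fell. Of 17 measured genes 6 fell and 0 rose, the median change was -0.89 and all 17 changes were negative. Meg3, a maternally expressed non-coding RNA, had the largest change of all genes with 1 symbol. It read 3516, 3501 and 3497 at 14 days and 117.5, 109.6 and 121.0 at 112 days, a fall of 26.7-fold (-4.74 ± 0.45 log2 units, limma adjusted p = 8.28e-07). Its other probe set read 1549, 1522 and 1731 and then 187.6, 206.9 and 186.3, a smaller fall of 7.71-fold (-2.95 ± 0.17, adjusted p = 4.56e-10). The 112-day values of the first lay below the filter limit of 125.7, so the size of that fold is uncertain. On the way that first probe set stood at a mean of 1636 at 28 days and 288.1 at 56 days. Dlk1, the paternally expressed neighbour of Meg3 and an inhibitor of differentiation of the Notch family, read 1463, 2005 and 1143 and then 345.3, 447.5 and 319.9. Its change was -1.98 ± 0.23 (adjusted p = 1.16e-05), and unlike Meg3 it had come down to a mean of 522.7 at 28 days. Cdkn1c, an inhibitor of the cell cycle, read 3806, 4682 and 2853 and then 1171, 1252 and 1361 (-1.55 ± 0.21, adjusted p = 0.000128). Mest fell by 1.96, the zinc finger gene Plagl1 by 1.98 and Ndn, necdin, by 1.12.

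Peg3, a paternally expressed zinc finger gene, gave unequal values on its 3 probe sets. They changed by -1.83 (adjusted p = 0.0052), -1.12 (adjusted p = 0.20) and 0.06, and the brightest of them, which stood for the gene in the list, was not called. Igf2, the fetal growth factor of this network, read 1406, 13217 and 3338 at 14 days and 2775, 3051 and 1539 at 112 days. The 14-day arrays spread over a wider range than the difference, and Igf2 was not called (adjusted p = 0.75). In the insulin-like growth factor pathway 3 of 16 genes fell and 0 rose. Igf1r, the receptor, read 1809, 1614 and 1787 and then 818.1, 611.9 and 613.4 (-1.34 ± 0.27, adjusted p = 0.0057). The binding protein genes Igfbp2 and Igfbp3 fell by 1.15 and 2.11, and the call of Igfbp3 was lost without the 112-day replicate 2.

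Antigen presentation genes rose. Of 29 measured genes for presenting antigen or responding to interferon, 7 rose and 0 fell, 28 changes were positive, and the median was 0.75. Class I molecules show peptides from inside a cell to CD8 T cells and class II molecules, carried by macrophages, dendritic cells and B cells, show taken-up peptides to CD4 T cells. H2-Aa, the class II alpha chain, had the largest rise among genes with 1 symbol, 8.21-fold. It read 57.4, 70.9 and 390.3 at 14 days and 953.1, 1252 and 1153 at 112 days (3.04 ± 0.55, adjusted p = 0.0020). The highest of the 14-day values comes from the replicate that stood apart, and without that array the change was 3.82 ± 0.50. H2-Ab1, the class II beta chain, read 91.6, 67.6 and 292.6 and then 639.5, 633.1 and 688.5 (2.25 ± 0.57, adjusted p = 0.025). Without the 14-day replicate 3 its change was 2.82. Cd74, the invariant chain that binds class II molecules, read 694.3, 763.0 and 1480 and then 2583, 3105 and 2874 (1.61 ± 0.28, adjusted p = 0.0016).

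Among class I genes, H2-D1 read 948.4, 952.3 and 1673 at 14 days and 3561, 3505 and 3330 at 112 days (1.58 ± 0.21, adjusted p = 8.45e-05). H2-K1 read 1779, 1777 and 2132 and then 5502, 5228 and 4712 on its brightest probe set (1.44 ± 0.17, adjusted p = 1.47e-05). Class I genes are near copies of each other and these probe sets can share signal between them. The other H2-D1 probe sets rose by 0.78 and 1.65. Another H2-K1 probe set rose by 2.14, while a dim H2-K1 probe set changed by 0.05. Iigp1, a GTPase made under interferon, rose by 1.88 and H2-Eb1, another class II beta chain, by 1.12. The transporters Tap1 and Tap2 that feed class I molecules changed by 0.99 and 0.75, and B2m, the light chain of class I, by 0.57, none of them called. The interferon-response factors Irf1, Irf7, Irf8 and Irf9 changed by 0.17 to 0.49 and were not called. The list had 4 rising members without the 14-day replicate 2, the 112-day replicate 1 or the 112-day replicate 2, 5 without the 14-day replicate 1 or the 112-day replicate 3, and 7 without the 14-day replicate 3. H2-Aa, Cd74, H2-K1 and H2-D1 kept their calls in all 17 alternatives, while H2-Ab1, H2-Eb1 and Iigp1 each lost theirs in several of the runs without an mdx array.

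Macrophage genes gave a mixed picture beside this. Of 20 measured macrophage and monocyte genes 3 rose and 0 fell, 15 changes were positive, and the median was 0.22, against -0.01 in control muscle. At 6 of the 20 every 112-day mdx array lay above every 14-day array, against 12.3% of all tested probe sets. Ccl8, a chemokine that draws monocytes and is made by resident macrophages, read 70.3, 57.6 and 84.8 at 14 days and 635.3, 636.7 and 558.9 at 112 days, a rise of 7.26-fold (adjusted p = 0.0010). It had reached a mean of 397.7 at 28 days. Lyz2, lysozyme, read 902.2, 961.9 and 985.3 and then 2371, 2296 and 1979 (1.20 ± 0.32, adjusted p = 0.033), and Ctss, the protease that trims the invariant chain, rose by 1.00 (adjusted p = 0.018). Some widely used macrophage markers changed little: Csf1r, the receptor for the macrophage growth factor, changed by -0.15, Cd68 by 0.27, Mrc1 by 0.07 and C1qa by -0.04, none of them called. The summed intensity of the 36 macrophage genes with a probe set was 11388 to 12661 in the 14-day arrays and 13789 to 16996 in the 112-day arrays, without overlap. In control muscle that sum was 11205 to 13160 and then 8827 to 13824, so the ages overlapped. The part of the mdx rise in the antigen presentation result was not tested. Ccl8 kept its call in all 16 alternatives that measured it. Ctss lost its call without the 14-day replicates 1 or 2 or the 112-day replicates 1 or 2, and Lyz2 without any 1 of the 6 mdx arrays. In those runs the list had 1 or 2 rising members, 1 without the 14-day replicate 1 or 2 and 1 without the 112-day replicate 1 or 2.

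**Figure D3:**
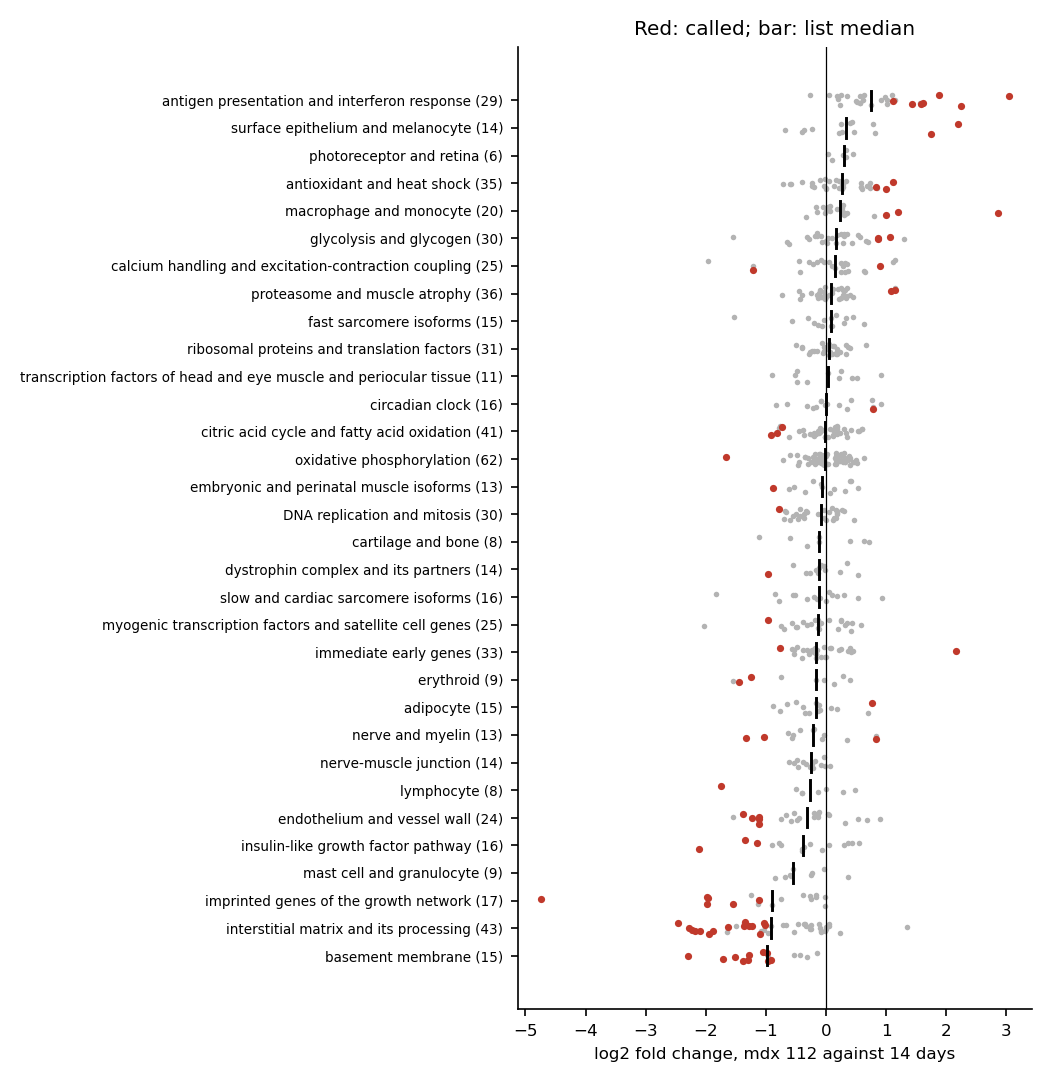
Log2 fold change of each measured gene, mdx muscle at 112 against 14 days, in the 32 lists with at least 5 measured genes. Red points are called genes, bars are list medians and the number tested is in parentheses. The basement membrane, interstitial matrix and imprinted lists have the lowest medians, -0.98, -0.92 and -0.89, and antigen presentation the highest, 0.75.

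Genes of the vessel wall fell in part. Of 24 measured genes of endothelium and vessel wall 5 fell and 0 rose, with a median of -0.32. Cdh5, the cadherin of endothelial junctions, read 3296, 3360 and 1942 at 14 days and 1343, 1144 and 1071 at 112 days (-1.22 ± 0.22, adjusted p = 0.0022). Cldn5, the claudin of tight endothelium, fell by 1.38 and Tie1, an endothelial receptor kinase, by 1.11 on its called probe set, with -0.60 on another that was not called (adjusted p = 0.23). Ramp2 and Rgs5, of endothelium and pericytes, each fell by 1.12, and both lost their calls without the 14-day replicate 3 or any of the 112-day replicates. Pecam1, Kdr, Flt1, Tek and Vwf, which also mark endothelium, changed by -0.52 to 0.04 and were not called. The summed intensity of the 28 genes with a probe set was 24235 to 30618 at 14 days and 19482 to 21050 at 112 days. The list had 3 falling members without the 14-day replicate 3 and 3 without any of the 112-day replicates, against 5 without the other 14-day arrays. Gja4, connexin 37 of arterial endothelium, is outside the list and fell by 2.11 (adjusted p = 0.030), a call lost without the 14-day replicate 2 or 3 or the 112-day replicate 1 or 2.

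The 12 largest rises included 4 genes of enzymes that handle foreign compounds. No list of such enzymes was counted, so they stand here as single genes. Cyp2e1, a cytochrome P450 that oxidises small molecules such as ethanol, read 592.0, 573.2 and 359.0 at 14 days and 2520, 2188 and 1913 at 112 days. The rise was 4.31-fold (2.11 ± 0.24, adjusted p = 9.33e-06) and stood at means of 1421 at 28 days and 1884 at 56 days. Mgst1, a glutathione transferase of membranes, read 488.7, 687.0 and 727.0 and then 2572, 2693 and 2636 (2.05 ± 0.19, adjusted p = 6.03e-07). Gsto1, another glutathione transferase, read 458.2, 564.5 and 1147 and then 2907, 3251 and 5094 (2.42 ± 0.55, adjusted p = 0.013). Aldh3a1, an aldehyde dehydrogenase abundant in cornea, rose by 2.03 (adjusted p = 0.011), with means of 321.6 at 28 days and 254.2 at 56 days, so that most of its rise came after 56 days. Cyp2e1 and Mgst1 kept their calls in all 17 alternatives. Gsto1 lost its call without the 14-day replicate 1 or 2 or the 112-day replicate 3, and Aldh3a1 without the 14-day replicate 2 or the 112-day replicate 3.

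Some markers of glands and surface epithelium, tissues that lie next to the eye muscles, rose too. Of 17 lacrimal and Harderian gland genes with a probe set 4 passed the filter on dim signals, and 2 of these rose. Amy1, amylase, read 135.4, 51.9 and 175.5 at 14 days and 375.1, 296.9 and 334.3 at 112 days (1.48 ± 0.32, adjusted p = 0.0086), and Mup5, a urinary protein also made in glands, rose by 1.62 (adjusted p = 0.033). The summed intensity of the 17 gland genes was 1451 to 2090 at 14 days and 3964 to 4376 at 112 days, without overlap. In control muscle that sum went from 1623 to 2057 up to 2095 to 4279, with a median of 4252 at 112 days. The mean log2 level of the 4 filtered genes was 8.52, 9.32 and 9.23 in the 112-day control replicates 1, 2 and 3. The lowest of these comes from the array that stood apart. Of 14 measured epithelium and melanocyte genes 2 rose: Dsp, desmoplakin of desmosomes, by 2.19 (adjusted p = 0.041) and the keratin gene Krt6a by 1.74 (adjusted p = 0.038). Of the 14 changes in this list 10 were positive and 4 negative, and 0 genes were called lower. Dsp read 120.8, 81.2 and 74.9 at 14 days and 391.1, 419.3 and 630.1 at 112 days. The summed intensity of the 29 epithelium genes was 3657 to 5868 and then 6168 to 8244. In control muscle it was 5320 to 6197 and then 4542 to 6950, so the ages overlapped, and the list median was 0.33 in mdx and -0.13 in control. Tspan8, a membrane protein of epithelia, read 26.5, 29.7 and 99.9 and then 350.1, 372.7 and 483.5, a rise of 6.81-fold (adjusted p = 0.0098). How far such tissue in the samples moved any other gene was not tested. Dsp lost its call when any 1 of the 6 mdx arrays was left out, and Krt6a when any but the 14-day replicate 1 was, so that the epithelium list had 0 or 1 rising members in those runs. The gland list had 0 rising members without the 112-day replicate 1. Amy1 lost its call without the 14-day replicate 2 or the 112-day replicate 1, Mup5 without the 14-day replicate 1 or 3 or the 112-day replicate 1 or 3, and Tspan8 without the 14-day replicate 1 or the 112-day replicate 3.

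Most contractile genes showed no called change. Of 15 fast sarcomere genes 0 were called, with a median of 0.07, and of 16 slow and cardiac sarcomere genes 0 were called, with a median of -0.12. At an unadjusted limma p under 0.05 there were 1 of 15 fast and 3 of 16 slow genes, against 1116 of the 7453 probe sets. Myh1, the fast IIX myosin, read 10828, 19469 and 9647 at 14 days and 11611, 10671 and 8773 at 112 days. Myh4, the fast IIB myosin, changed by 0.11 ± 0.73 on its brighter probe set. Myh3 and Myh8, the embryonic and perinatal myosins, which limb muscle loses and eye muscle is known to keep, changed by 0.40 ± 0.94 and -0.34 ± 0.50 and were not called (adjusted p = 0.92 and 0.85). Myh3 read 3550, 4019 and 4398 and then 4597, 6092 and 5139, and Myh8 read 2280, 2220 and 2815 and then 2032, 1761 and 1942. The ages did not overlap in mdx muscle for Myh3, higher at 112 days, or for Myh8, lower at 112 days. Their errors rest on a spread shared with the control arrays, including the 112-day replicate 1 that stood apart. In control muscle Myh3 changed by -2.20, or -0.05 without that array, and Myh8 by -1.79, or -0.66 without it. Over all alternatives the lowest limma adjusted p in mdx muscle was 0.15 for Myh3 and 0.14 for Myh8. A p that misses the threshold does not show that a level stayed the same, and the errors of the myosins leave room for changes of some size. Of 13 embryonic and perinatal muscle genes 1 fell: Nes, the filament protein nestin of immature fibres, which read 1746, 1475 and 1330 and then 774.7, 871.3 and 783.5 (-0.89 ± 0.22, adjusted p = 0.027). Its call was lost without any mdx array other than the 14-day replicate 3.

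Dmd itself, whose RNA is made but unstable in mdx muscle, read 96.6, 184.1 and 121.8 at 14 days and 124.3, 122.6 and 106.2 at 112 days, a change of -0.13 ± 0.28 (adjusted p = 0.91). These values lay below the control arrays, which read 250.2 to 334.6 at 14 days and 234.0 to 442.7 at 112 days. Utrn, utrophin, the relative that can stand in for dystrophin, changed by -0.33 ± 0.50 on its brighter probe set. Of 14 genes of the dystrophin complex and its partners 1 fell, Lama2. At the nerve-muscle junction 0 of 14 genes were called by limma, 0 had an unadjusted p under 0.05, and 13 changes were negative. Chrne, the adult subunit of the acetylcholine receptor, changed by -0.47 ± 0.25 on its brightest probe set and Chrng, the fetal subunit, by -0.61 ± 0.58 and -0.08 ± 0.32 on its probe sets, none of them called.

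Metabolic genes were called in small numbers, while 1.73% of all tested probe sets were called higher and 2.23% lower. The shares lay above this for glycolysis and for fatty acid oxidation, but not for oxidative phosphorylation. An unadjusted limma p under 0.05 was found at 10 of 30, 10 of 41 and 4 of 62 genes of these lists. Over all tested probe sets it was found at 1116 of 7453. In glycolysis and glycogen 3 of 30 genes rose and 0 fell. Ugp2, which makes the sugar donor for glycogen, read 1920, 2069 and 1895 at 14 days and 4171, 4205 and 3998 at 112 days (1.07 ± 0.13, adjusted p = 3.2e-05). Gyg, the glycogenin that primes glycogen, and Hk2, the hexokinase of muscle, each rose by 0.87. Among genes of fatty acid oxidation and the citric acid cycle 3 of 41 fell and 0 rose: Ucp3, the muscle uncoupling protein, by 0.82, Cpt1a, which takes fatty acids into mitochondria, by 0.91, and Eci1, an isomerase of fatty acid oxidation, by 0.73. Of 62 oxidative phosphorylation genes 1 fell, the cytochrome oxidase subunit gene Cox8b, by 1.66 on 1 probe set (adjusted p = 0.028), while another Cox8b probe set changed by 0.73 (adjusted p = 0.055). Ugp2 kept its call in all 17 alternatives. Each of Gyg, Hk2, Ucp3, Cpt1a, Eci1 and Cox8b lost its call in at least 3 of the 6 runs without an mdx array. The glycolysis list had 1 rising member without the 14-day replicate 1 or 2 or the 112-day replicate 1. The fatty acid list had 1 falling member without the 14-day replicate 1 and 0 without any of the 112-day replicates. Without the 14-day replicate 3, the array that stood apart, it had 3 rising and 0 falling members. Its median was then 0.03, against -0.01 with all arrays. Ucp3, Cpt1a and Eci1 kept their negative sign in all 17 alternatives, so single arrays decided which members were called.

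Genes of calcium handling, stress response and protein breakdown were called in small numbers, but at shares above the background. Over all tested probe sets 1.73% were called higher and 2.23% lower. An unadjusted limma p under 0.05 was found at 6 of 25 calcium, 12 of 35 stress and 5 of 36 protein breakdown genes. Over all tested probe sets it was found at 1116 of 7453. Ryr1, the calcium release channel of muscle, read 5139, 6411 and 5760 at 14 days and 12102, 10491 and 9655 at 112 days (0.90 ± 0.21, adjusted p = 0.018). Itpr2, an inositol trisphosphate receptor, fell by 1.21, and these were the 2 called genes of 25 in calcium handling. Of 35 antioxidant and heat shock genes 3 rose and 0 fell. Cryab, the small heat shock protein alphaB-crystallin, read 3072, 2894 and 3004 and then 5973, 4560 and 5561 (0.83 ± 0.16, adjusted p = 0.0043). Hspa1b, an inducible Hsp70, rose by 1.11 and Gpx3, a secreted glutathione peroxidase, by 1.00. In protein breakdown 2 of 36 rose, the ubiquitin-conjugating enzyme gene Ube2b by 1.09 and the mitophagy receptor gene Bnip3 by 1.15, both kept in all 17 alternatives. Ryr1 lost its call without the 14-day replicate 1 or the 112-day replicate 1 or 2, Itpr2 without the 14-day replicates 1 or 2 or the 112-day replicates 1 or 2, and Hspa1b without the 14-day replicate 1 or the 112-day replicate 3. Gpx3 lost it without any mdx array but the 14-day replicate 3. The stress list had 1 rising member without the 14-day replicate 1 or the 112-day replicate 3 and 5 without the 14-day replicate 3. The calcium list had 0 called members without the 14-day replicate 1 or the 112-day replicate 1 or 2, and 3 rising and 1 falling without the 14-day replicate 3.

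Outside the lists, Capn6, a calpain of embryonic muscle without protease activity, read 1094, 1066 and 1081 at 14 days and 193.5, 188.4 and 237.0 at 112 days (-2.31 ± 0.45, limma adjusted p = 0.0041), and its other probe set fell by 1.20 ± 0.23 (adjusted p = 0.0039). Clcn5, a chloride transporter of endosomes, fell by 2.53 ± 0.37 on the probe set that was called (limma adjusted p = 0.00022), while the other gave -0.42 ± 0.44 (adjusted p = 0.76). Gm14743 rose by 2.85 ± 0.63 (adjusted p = 0.011), from 305.8, 249.5 and 630.6 to 3674, 1553 and 3524, and lost its call without the 14-day replicate 2 or the 112-day replicate 1 or 3.

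In nerve and myelin 2 of 13 genes fell and 1 rose, with a median of -0.22. Pmp22, the peripheral myelin protein, read 6089, 6285 and 5873 at 14 days and 2468, 2171 and 2599 at 112 days (-1.33 ± 0.35, adjusted p = 0.034), and Mbp, myelin basic protein, fell by 1.02 on its brighter probe set, while a dimmer one changed by 0.51 (adjusted p = 0.61). Both calls were lost without any 1 of the 6 mdx arrays. Cryab, the rising member, is also a muscle gene. In DNA replication and mitosis 1 of 30 measured genes fell, the tubulin gene Tubb5, by 0.79, and 0 rose. Ribosomal and translation genes had 0 of 31 called by limma, with an unadjusted p under 0.05 at 2. Among markers of other cells, 2 of 9 erythroid genes fell, Car2 by 1.25 and Alas2 by 1.45, with a list median of -0.17. Of 8 lymphocyte genes 1 fell, Thy1, which also marks fibroblasts and neurons, by 1.75, with a list median of -0.27. Of 15 adipocyte genes 1 rose, the hormone gene Adipoq, by 0.77, while 11 of the 15 changes were negative and the median was -0.17. Alas2 lost its call without any mdx array except the 14-day replicate 1, and Adipoq without the 112-day replicate 1 or 2. The photoreceptor and retina genes, 6 measured, the transcription factors of head and eye muscle, 11 measured, and the sex-linked genes, 2 measured, had 0 called by limma, with an unadjusted p under 0.05 at 0. Cartilage and bone genes had 0 of 8 called and 2 at an unadjusted p under 0.05, and mast cell and granulocyte genes 0 of 9 and 1. Id1, an inhibitor of differentiation factors, was the 1 of 25 myogenic genes that fell, by 0.96, and Nr1d1, a repressor of the clock, the 1 of 16 circadian genes that rose, by 0.78. Of 33 immediate early genes Klf10 fell by 0.77 and Gadd45b, a stress sensor, rose by 2.16. Id1, Nr1d1 and Gadd45b each lost their calls in at least 5 of the 6 runs without an mdx array.

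The 28-day and 56-day arrays show how far the change had gone. Their means are not part of the comparison, but they entered it through the filter and the shared estimate of the spread. Of the 129 probe sets called higher, 66 had passed the middle of their change at 28 days and 110 at 56 days. Of the 166 called lower, 68 had passed it at 28 days and 133 at 56 days. The median share of the change reached was 50.5% for rises and 42.6% for falls at 28 days, and 79.4% and 75.0% at 56 days. These are descriptions of group means, not tests. The mean log2 level of the interstitial matrix genes was 10.72 ± 0.10 (SD, 3 arrays) at 14 days and 10.66 ± 0.09 at 28 days, so that these ages lay close, and then 10.14 ± 0.04 at 56 days and 9.87 ± 0.15 at 112 days. The basement membrane genes were at 10.31, 9.92, 9.34 and 9.26 at the same ages, and the macrophage genes at 8.74, 9.13, 9.14 and 9.11.

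**Figure D4:**
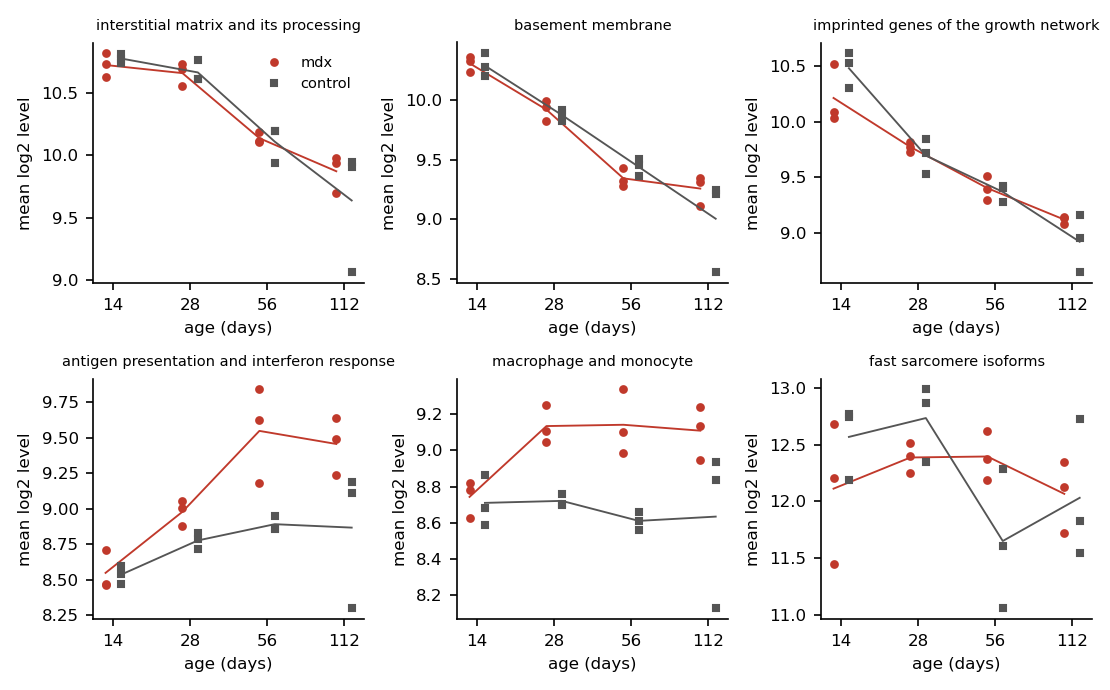
Mean log2 level of 6 gene lists at 14, 28, 56 and 112 days, 1 point per array, red for mdx and grey for control, with lines through the group means. In mdx muscle the antigen presentation list went from 8.55 at 14 days to 9.46 at 112 days, and the matrix, basement membrane and imprinted lists went down.

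Control muscle over the same span gave 813 called probe sets, 10.9% of those tested, with 387 higher (5.19%) and 426 lower (5.72%). Of the 295 mdx calls, 219 were also called in control in the same direction and 0 in the opposite direction, which is 74.2% of the mdx calls and 26.9% of the control calls. The sign was the same in control at 291 of the 295. The test of the difference between the mdx and the control change called 0 of 7453 probe sets by limma, with a smallest adjusted p of 0.969 and 284 probe sets at an unadjusted p under 0.05. No gene is therefore reported as changing more in either genotype. The larger number of calls in control is no measure of a larger change. Without the control 14-day replicate 1, the 14-day replicate 3 or the 112-day replicate 1 the control count was 465, 533 or 512.

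Set side by side, matrix and imprinted genes fell in both genotypes. The log2 change in mdx and in control was -4.74 and -5.02 for Meg3, -2.18 and -2.56 for Col1a2, -1.71 and -1.95 for Col4a1, and -1.98 and -2.03 for Dlk1. The list medians were -0.92 in mdx and -1.06 in control for the interstitial matrix, -0.98 and -1.22 for the basement membrane and -0.89 and -1.21 for the imprinted genes. H2-Aa rose by 3.04 and 3.15, Cyp2e1 by 2.11 and 2.01 and Mgst1 by 2.05 and 2.24. For antigen presentation as a list the medians were 0.75 and 0.10, with 7 of 29 genes rising in mdx and 5 in control. Without the control 112-day replicate 1 the control median of this list was 0.33 and 22 of its 29 control changes were positive, and the control median of the interstitial matrix was -0.72.

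At 76 of the 295 probe sets, 40 higher and 36 lower, the mdx change was called and the control change was not, and the difference was called at 0 of the 76. The 7 genes given here were chosen from these after their values were seen. Ccl8 changed by 2.86 ± 0.48 in mdx and 0.98 ± 0.48 in control, where it read 163.2, 54.6 and 118.7 and then 75.4, 405.8 and 326.4, the 75.4 coming from the array that stood apart. Without that array the control change of Ccl8 was 1.67. Ctss changed by 1.00 in mdx and -0.03 in control, or 0.32 without that array, and Lyz2 by 1.20 and 0.54, or 1.17 without it. Dsp changed by 2.19 and 0.39, or 0.83 without that array, and Krt6a by 1.74 and 0.19, or 0.41 without it. Igf1r fell by 1.34 in mdx and changed by -0.58 in control, or -0.33 without that array. Lamc1 fell by 1.29 in mdx and changed by -0.52 in control, or -0.58 without it. For each of these genes the adjusted p of the difference was 0.969.

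**Figure D5:**
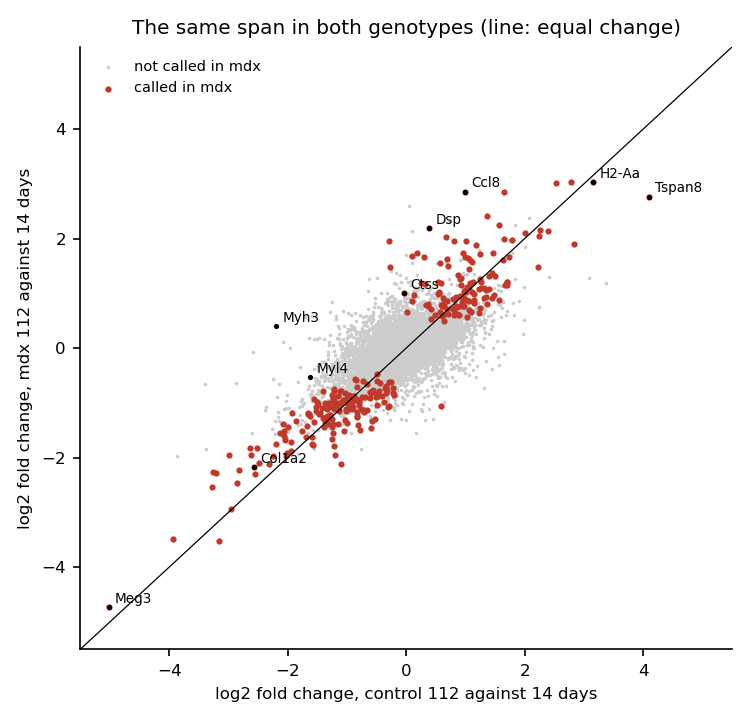
Log2 fold change at 112 against 14 days in mdx muscle (vertical) and in control muscle (horizontal), 1 point per tested probe set, with the 295 probe sets called in mdx in red and the line of equal change. At 291 of the 295 the sign is the same in both genotypes; Ccl8, Dsp and Ctss lie above the line.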

How the data were processed

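RNA of mouse extraocular muscle was measured on 24 Affymetrix arrays with 1 colour, grouped by the sample titles. The authors deposited linear intensities, with 1 value for each probe set on each array, already brought to a common level: without the lowest and highest 2% of values, array means lay between 1500.5 and 1500.9. Per the labels a standard Affymetrix protocol was followed; scanner software is not given in the sources used here.

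Values under 1 were set to 1, arrays were scaled to a trimmed mean of 500, 16 was added and log2 taken. Fold changes are on this scale, which understates dim probe sets. After removing 66 manufacturer controls, 7453 of 12422 probe sets, those whose mean log2 level over all 24 arrays reached the 40th percentile, were tested. Names came from the platform annotation, which can be old, and 10817 of 10833 probe sets with 1 symbol matched RefSeq. A limma fit (limma 3.58.1, R 4.3.3; lmFit, eBayes with trend) with 8 group means over 24 arrays gave two-sided tests with Benjamini-Hochberg adjustment over all tested probe sets. Errors of changes are standard errors of this fit, with 16 residual degrees of freedom. The number of arrays limits precision. The fit was tested on simulated data.

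Named genes were up to 12 rises and 12 falls with the largest change among called probe sets, up to 4 members per gene list with the smallest p, and Dmd, Utrn, the myosin heavy chains, Chrne and Chrng. Other list members named in the text were chosen after their values were seen. A gene with several probe sets entered its list through the brightest. Gene lists numbered 34 and were described by counts and medians. Members and lists were chosen with earlier results of these data known. Replicate numbers were not used as pairs.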

Additional observations from a re-analysis of the deposited data

Results flagged for a closer look

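At 12 of 7453 probe sets the 3 mdx arrays at 112 days all lay on 1 side of those at 14 days while the control arrays all lay on the opposite side. The change was 5 times upward and 7 times downward in mdx muscle. The limma test of the difference called 0 of them, with an adjusted p of 0.969 for each, and 7 had an unadjusted p under 0.05. None of the 12 was called in mdx muscle and 1, a probe set without a symbol, was called in control. The mdx change minus the control change was 1.10 for Hsd3b7, an enzyme of bile acid synthesis, 2.08 for Prl, prolactin, 1.16 for Galnt3, 0.55 for Atp6v0a2 and 2.18 for the probe set without a symbol. It was -1.20 for Tef and -0.56 for Cry1, both of the circadian clock, -1.35 for Gm1673, -0.53 for Mlec, -0.46 for Ppp1r14b, -0.68 for Itgb5 and -0.47 for Gipc1. Tef read on average 1668 and then 1058 in mdx muscle, and 1156 and then 1696 in control muscle. The labels give no time of day of sampling.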

How the results depend on the processing

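The count of 295 calls in mdx muscle became 184, 80 higher and 104 lower, with arrays scaled to a common median, and 502, 221 higher and 281 lower, without the control arrays that stood apart. Leaving out 1 mdx array gave 125 to 307 calls, 46 to 168 higher and 79 to 139 lower. The control count of 813 was 292 with only the 6 control arrays of these ages and 465 to 833 with 1 array left out. Under a common median 71.0% of the control calls were rises, against 47.6%. The other alternatives tried, among them the offset, the filter and quantile normalization, gave 234 to 306 calls in mdx muscle. The difference between genotypes had 0 calls in every alternative.

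The labels do not say what the replicate numbers share. Between the ages, the deviations of same-numbered mdx arrays correlated at 0.02, -0.02 and 0.14, and those of arrays with unlike numbers at -0.12 to 0.14. With the replicate number as a block, 285 probe sets were called, 124 higher and 161 lower, and 811 in control. Of the 91 called probe sets of named genes, 45 kept their call in all alternatives, 46 lost it in at least 1 and 0 changed sign. Signs turned only at genes that were not called. Over all alternatives the change ran from -0.35 to 0.091 for Chrng and from -0.50 to 0.44 for Utrn, each on the dimmer probe set. For the probe sets of Myh7 it ran from -0.31 to 0.31 and from -0.023 to 0.18, and for the dimmest probe set of Chrne from -0.67 to 0.028. It ran from -0.32 to 0.0995 for Dmd, from -0.50 to 0.0086 for Myh1 and from -0.037 to 0.33 for Myh4. The causes were not tested. Signal near the filter limit of 125.7, as for H2-Aa or Ccl8 at 14 days, limits what a fold can show, and those folds depend on the offset.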
